A study of Mus musculus with 8 samples.

Results

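The enzymes that make fatty acids from acetyl-CoA, lengthen them and place double bonds in them were followed as 10 genes: Acly, Acaca, Fasn, Elovl6, Elovl1, Elovl5, Scd1, Scd2, Fads1 and Fads2. They were chosen by name, as steps of 1 pathway, and all 10 were present among the 13378 genes of the deposited table. The cells were FT1CL, an acute myeloid leukemia line of the mouse, sequenced as 4 Cop1KO and 4 Cop1WT RNA libraries. Cop1KO cells had been given 4-hydroxytamoxifen, which activates a Cre recombinase that cuts out the conditional Cop1 alleles, and Cop1WT cells, labelled Cop1 +/+, had received no treatment, so the deletion and the drug cannot be told apart. Both groups shared every other feature of the model: marrow from a Cop1 cKO/Rosa26-Cre-ERT2 mouse of 8 weeks, taken 5 days after 150 mg/kg of 5-fluorouracil, a pMYs retrovirus that overexpresses Trib1, and culture in Iscove medium with interleukin-3 at 5 ng/mL and 10% serum of fetal calves. The cells are 1 line kept in culture, and since separate cultures are not named in the labels, the p-values rest on library-to-library spread that may be only technical.

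Fatty acid synthesis begins when Acly cuts citrate into cytosolic acetyl-CoA, Acaca carboxylates it to malonyl-CoA in the rate-limiting step, and Fasn joins these units into palmitate. Elovl6 lengthens palmitate to stearate, Scd1 and Scd2 turn these saturated chains into palmitoleate and oleate, and Fads2 and Fads1 desaturate the polyunsaturated chains that Elovl5 lengthens. Most of these genes are classical targets of the SREBP transcription factors, and proliferating leukemia cells draw on the pathway for membrane lipids. COP1 is the ubiquitin ligase that Tribbles proteins bring to their substrates: TRIB1 and TRIB2 bring it to C/EBPα, and TRIB3 has been described as bringing it to acetyl-CoA carboxylase, the protein of Acaca.

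The regions in front of 3 of the enzymes and of both main promoters of Srebf1, the gene of SREBP-1, are shown because the results below turn on genes that moved together and on a choice between these Srebf1 starts. Each is the 250 bases before a start site, printed 5′ to 3′ on the gene's strand (RefSeq, build GRCm38.p6). Capitals mark the NF-Y box CCAAT and the E-box CACGTG on either strand, and the SREBP core TCACNCCAC was searched as well.
Fasn, chr11:120824548-120824797, minus strand: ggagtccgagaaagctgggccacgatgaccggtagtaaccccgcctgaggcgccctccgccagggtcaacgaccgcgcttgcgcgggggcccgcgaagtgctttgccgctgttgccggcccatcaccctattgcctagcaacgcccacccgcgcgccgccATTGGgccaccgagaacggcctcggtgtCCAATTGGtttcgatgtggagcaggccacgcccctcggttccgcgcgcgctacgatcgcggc
Acly, chr11:100528001-100528250, minus strand: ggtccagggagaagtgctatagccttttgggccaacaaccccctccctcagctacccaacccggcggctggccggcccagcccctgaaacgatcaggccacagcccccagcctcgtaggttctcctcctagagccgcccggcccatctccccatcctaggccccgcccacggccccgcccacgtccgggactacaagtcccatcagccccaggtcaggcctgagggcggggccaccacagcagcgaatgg
Elovl5, chr9:77917115-77917364, plus strand: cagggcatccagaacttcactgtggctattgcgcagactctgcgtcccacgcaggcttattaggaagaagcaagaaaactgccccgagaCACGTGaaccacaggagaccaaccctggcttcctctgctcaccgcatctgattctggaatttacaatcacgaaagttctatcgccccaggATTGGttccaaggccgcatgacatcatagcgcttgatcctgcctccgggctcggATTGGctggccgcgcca
Srebf1 at its middle first exon, chr11:60220628-60220877, minus strand: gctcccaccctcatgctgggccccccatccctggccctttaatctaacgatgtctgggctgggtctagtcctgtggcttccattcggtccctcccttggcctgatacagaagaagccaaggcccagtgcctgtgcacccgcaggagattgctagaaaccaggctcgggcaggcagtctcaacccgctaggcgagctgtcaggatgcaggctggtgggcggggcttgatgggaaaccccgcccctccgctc
Srebf1 at its downstream first exon, chr11:60210472-60210721, minus strand: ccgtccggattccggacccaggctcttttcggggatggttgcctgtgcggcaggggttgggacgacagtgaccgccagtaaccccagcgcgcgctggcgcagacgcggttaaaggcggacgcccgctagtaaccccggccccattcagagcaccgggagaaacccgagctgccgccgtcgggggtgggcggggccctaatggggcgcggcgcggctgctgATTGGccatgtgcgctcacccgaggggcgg
RefSeq entries were matched for 7 of the 10 enzymes (8 start sites), and Scd1, Scd2 and Fads1 had none in the source used. The Acaca window (chr11:84195188-84195437, plus strand) lies inside the gene, which spans 84129672 to 84401651. The region before the first start of Acaca was therefore not searched. The second of the Elovl1 windows (118429451 to 118429700) also lies inside its gene, which spans 118428093 to 118432953. Almost all of the Fads2 window (10101504 to 10101753, minus strand) lies inside its gene too, which spans 10062765 to 10101746. The NF-Y box was found in 3 of the 8 windows, against 33.8% of 32817 mouse windows of the same length. Fasn held 3 of these boxes, at positions -90, -62 and -59 from the start, of which the last 2 overlap as CCAATTGG. Elovl5, which was not called below, held 2. None of the 8 windows held the SREBP core (1.05% of all windows), and 1, Elovl5, held the E-box (6.02% of all windows). No match says only that these letters are not in this window.

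Levels are given in RPM: reads that cross exon junctions, summed over a gene's junctions, per 1000000 such reads of the library. Libraries held 17333302 to 22469109 junction reads in Cop1KO and 17811247 to 20981993 in Cop1WT (exact permutation p = 0.60, two-sided). Cop1 itself fell in every Cop1KO library, to 66.7 to 81.3 RPM, against 159 to 166 RPM in Cop1WT libraries, a mean of 45.4% of the Cop1WT level. Some junctions held at most 6 reads in a library where the gene's other junctions predicted 100 or more. Such dropped values made up 7.04 ± 0.239% of the values of well-read junctions in Cop1KO and 7.15 ± 0.433% in Cop1WT (SD, n = 4, exact permutation p = 0.66, two-sided). Marker sums leave out junctions that hold a dropped value, while counts of called markers come from the fit over all junctions. All 10 markers of myeloid leukemia cells were detected, no hepatocyte marker was in the table, and 3 of 8 adipocyte markers were (summed 31.2 to 41.3 RPM in Cop1KO and 36.1 to 43.7 RPM in Cop1WT). Late neutrophil markers moved with the groups: 8 of 13 rose, and their sum was 4976, 10413, 4440 and 366 RPM in Cop1KO libraries 1 to 4, against 10.1 to 51.4 RPM in Cop1WT. S-phase genes moved the other way: 9 of 17 fell, and their sum was 2486 to 3015 RPM in Cop1KO, against 4051 to 4415 RPM in Cop1WT. The 10 myeloid leukemia markers themselves moved, with 6 called higher and a sum of 5010 to 7760 RPM in Cop1KO, against 2519 to 4481 RPM in Cop1WT. Of mast cell and basophil markers 5 of 8 tested rose (sums 12057 to 17261 RPM in Cop1KO and 11923 to 13864 RPM in Cop1WT), and of erythroid markers 2 of 4 fell (47.7 to 431 RPM in Cop1KO and 279.8 to 571 RPM in Cop1WT). Over all genes tested 8.49% were called higher and 12.1% lower. The part of any of these shifts in the results on the enzymes was not tested, and in bulk RNA fewer cells that make an enzyme and less RNA of it per cell cannot be told apart.

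Message of the fatty acid enzymes was lower in Cop1KO libraries, and the desaturases fell furthest among those called. In the limma fit across 11003 genes, 6 of the 10 were called lower at a Benjamini-Hochberg adjusted p below 0.05 (Scd1, Scd2, Fads2, Fads1, Fasn and Acly) and 0 were called higher, where 12.1% of all genes were called lower and 8.49% higher. Acaca and Elovl6 were also negative and just missed the threshold, and Elovl5 and Elovl1 were not called. The median log2 fold change over the 10 was -0.64 (Cop1KO minus Cop1WT), against -0.07 over all genes tested. In 5 of the 10 every Cop1KO library lay below every Cop1WT library, which held for 15.4% of all genes tested. With junctions that hold a dropped value left out, Fasn overlapped and 4 of the 10 remained apart, but the share over all genes was not counted there. The number called depended on single libraries: it was 3 without library 1 or 3 of Cop1KO or library 1, 2 or 3 of Cop1WT, and those 3 were Scd2, Fads1 and Fads2 in each case. Genes called lower over the whole set fell in these fits as well, from 1330 of 11003 to between 706 of 10967 and 1020 of 11030.

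Of the desaturases, Scd2, which introduces the double bond of oleate and is expressed in many tissues, gave 329, 374, 379.9 and 533 RPM in Cop1KO libraries 1 to 4, against 904, 846, 873 and 602 RPM in Cop1WT. All 4 Cop1KO values lay below all 4 Cop1WT values, and both libraries numbered 4 lay toward the other group. The log2 fold change was -1.0 ± 0.18 (SE; adjusted p = 0.0083, limma), with a mean of 50.1% of the Cop1WT level. This call was kept when any 1 library was left out.

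Scd1, the same activity from the neighbouring gene, had the largest fold change of the 10. It gave 32.3, 44.9, 43.2 and 100.8 RPM in Cop1KO, against 175, 163, 156 and 79.5 RPM in Cop1WT. Cop1KO libraries 1 to 3 lay below every Cop1WT library, but library 4 of Cop1KO lay above library 4 of Cop1WT, so the groups overlapped. The log2 fold change was -1.43 ± 0.37 (SE; adjusted p = 0.030, limma). Its call was lost with the replicate number as a block (adjusted p = 0.058) and in 6 of the 8 fits that leave out 1 library, while without both libraries numbered 4 the log2 fold change was -2.02 ± 0.14 (SE; adjusted p = 4.3e-04, limma). Scd1 and Scd2 lie on chromosome 19, 87.6 kb apart (mm10: 44394455 to 44407879 and 44293674 to 44306864), and how reads common to these related genes were assigned is not given in the sources used here. Their summed level was 459 ± 119.7 RPM in Cop1KO and 949.8 ± 181 RPM in Cop1WT (SD, n = 4 each). Scd1 made up 11.4 ± 3.06% of that sum in Cop1KO and 14.8 ± 2.15% in Cop1WT (SD, n = 4), and the log2 ratio of Scd1 to Scd2 differed by -0.45 (exact permutation p = 0.086, two-sided; 0.21 after adjustment over 3 ratios, with 0.029 the smallest p that 4 against 4 allows).

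Fads2, which performs the first desaturation of linoleic and alpha-linolenic acid, gave 302, 305, 311 and 482 RPM in Cop1KO, against 717, 645, 667 and 655 RPM in Cop1WT. Libraries 1 to 3 of Cop1KO lay within 10 RPM of each other and library 4 stood above them, yet the highest Cop1KO value stayed below the lowest Cop1WT value. The log2 fold change was -0.97 ± 0.15 (SE; adjusted p = 0.0054, limma). Fads1, which makes arachidonic acid further along the same route, gave 141, 123, 106 and 161 RPM in Cop1KO, against 267, 257, 175 and 224 RPM in Cop1WT. The groups did not overlap, although library 4 of Cop1KO and library 3 of Cop1WT were close, and the log2 fold change was -0.79 ± 0.17 (SE; adjusted p = 0.015, limma). Both Fads calls were kept when any 1 library was left out. Fads1 (10182888 to 10196877, plus strand) and Fads2 (10062765 to 10101746, minus strand) face away from each other on chromosome 19 of mm10 with 81.1 kb between them. The log2 ratio of Fads1 to Fads2 was -1.38 ± 0.228 in Cop1KO and -1.56 ± 0.265 in Cop1WT (SD, n = 4 each; difference 0.18, exact permutation p = 0.40, two-sided; also 0.40 after adjustment).

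Fasn, Acly and Acaca, which supply and build the chain, moved by less than the desaturases. Fasn, the synthase itself, gave 1111, 1393, 1113 and 1411 RPM in Cop1KO, against 1803, 1897, 1952 and 1417 RPM in Cop1WT. The groups did not overlap as summed, but the 2 libraries numbered 4 were nearly level. With its 2 junctions that hold dropped values left out, library 4 gave 1411 RPM in Cop1KO and 1379 RPM in Cop1WT, so the groups overlapped and the order of that pair turned. The log2 fold change was -0.49 ± 0.13 (SE; adjusted p = 0.032, limma). Acly, the source of cytosolic acetyl-CoA, gave 703, 799.7, 877 and 934 RPM in Cop1KO, against 1116, 993, 1246 and 1020.5 RPM in Cop1WT. These groups did not overlap either, and the log2 fold change was -0.40 ± 0.11 (SE; adjusted p = 0.035, limma). Both calls were lost under TMM scaling, which centres the genes (adjusted p = 0.072 for Fasn and 0.081 for Acly); Scd1, Scd2, Fads1 and Fads2 were the 4 members called there, where 8.83% of all genes were called lower. Fasn was called in 3 and Acly in 1 of the 8 fits that leave out 1 library.

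Acaca, the carboxylase, gave 273, 313, 249 and 267 RPM in Cop1KO, against 351, 363, 354 and 295 RPM in Cop1WT. Library 2 of Cop1KO lay above library 4 of Cop1WT, and this was the only overlap. The log2 fold change was -0.31 ± 0.10 (SE; adjusted p = 0.060, limma), a mean of 80.9% of the Cop1WT level. With the replicate number as a block the adjusted p was 0.041. Acaca and Elovl6 joined the 6 others when junctions with a dropped value were left out (adjusted p = 0.039 and 0.038), where 16.9% of all genes were called lower, and also without both libraries numbered 4 (0.035 and 0.0045), where 14.1% of all genes were. Elovl6 holds no dropped value, so in the first of these settings its reads and its log2 fold change of -0.84 were the same. Only the values of other genes in the fit had changed.

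None of the 3 elongases passed the test with all 8 libraries. Elovl6, which adds carbons to palmitate, was a low message of 12.0, 13.8, 9.34 and 24.7 RPM in Cop1KO, against 25.9, 28.5, 27.6 and 22.2 RPM in Cop1WT. Libraries 1 to 3 of Cop1KO lay below all of Cop1WT and library 4 did not. The log2 fold change was -0.84 ± 0.26 (SE; adjusted p = 0.054, limma), and -1.17 ± 0.16 without both libraries numbered 4. Elovl5, which lengthens polyunsaturated chains between the Fads2 and Fads1 steps, gave 160.0, 153.9, 153.6 and 104.5 RPM in Cop1KO, against 146.5, 137, 148.6 and 107 RPM in Cop1WT. The groups overlapped in full, both libraries numbered 4 were low, and the log2 fold change was 0.08 ± 0.16 (SE; adjusted p = 0.78, limma). The log2 ratio of Elovl6 to Elovl5 was -3.33 ± 0.866 in Cop1KO and -2.37 ± 0.116 in Cop1WT (SD, n = 4 each; exact permutation p = 0.14, two-sided, and 0.21 after adjustment over the 3 ratios).

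Elovl1, which makes saturated and monounsaturated chains of very great length, could not be judged from its sum. The sum gave 49.4, 25.8, 4.28 and 53.8 RPM in Cop1KO, against 21.5, 28.7, 27.2 and 56.9 RPM in Cop1WT, and 4 of its 9 junctions held 22 dropped values between them. The junction from block 8.1 to block 8.3, for example, held 426, 2, 2 and 653 reads in Cop1KO, against 1, 421, 1 and 420 reads in Cop1WT. Such values were high or nearly absent within both groups. The other 5 junctions summed to 2.24, 4.33, 3.92 and 5.25 RPM in Cop1KO, against 4.05, 5.79, 5.50 and 4.38 RPM in Cop1WT, and these differed by -0.29 ± 0.23 on the log2 scale (SE; adjusted p = 0.37, limma).

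**Figure D1:**
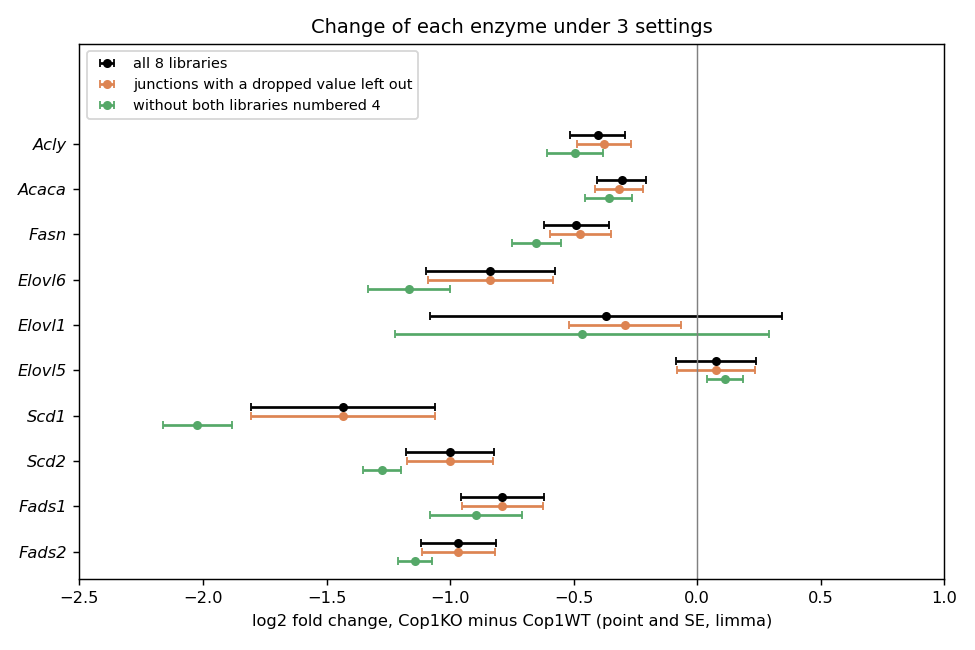
Log2 fold change, Cop1KO minus Cop1WT, with its SE from limma (horizontal axis) for the 10 enzymes with all 8 libraries, with junctions that hold a dropped value left out, and without both libraries numbered 4. Scd1 moves most between settings, from -1.43 to -2.02, and the Elovl5 points stay near 0.

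The single exon junctions of these genes were tested next. Of 183 junctions in the table, 12 held a dropped value and 144 were read deeply enough to test. In the limma fit on junctions 94 of the 144 were called lower and 0 higher, where 23.1% of all junctions tested were called lower, and 136 of the 144 had a negative log2 fold change. Every tested junction was called for Fasn (40), Fads1 (11), Fads2 (11), Scd1 (5) and Scd2 (5). The Fasn junctions ran from -0.58 to -0.38 on the log2 scale, and those of Scd1 from -1.55 to -1.32. Acly had 16 of 25 called and Acaca 5 of 38, although 36 of the 38 Acaca junctions were negative (median -0.32). Elovl6 had 1 of 2 called, and Elovl5 none of 7. Junctions of 1 gene come from the same transcripts and are not independent of each other.

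**Figure D2:**
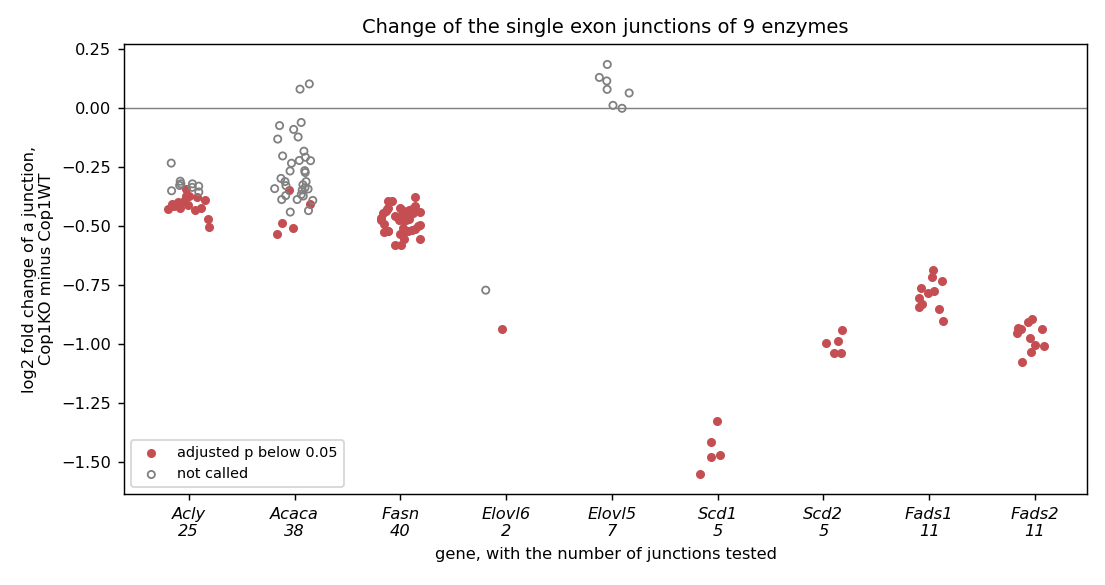
Log2 fold change of each tested exon junction, Cop1KO minus Cop1WT (vertical axis), for 9 enzymes; filled points have an adjusted p below 0.05 in limma. The Fasn, Scd1, Scd2, Fads1 and Fads2 junctions are all filled and lie below 0, and the 7 Elovl5 junctions lie between -0.002 and 0.18.

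No change in junction use was called for any of the 9 enzymes with tested junctions. In limma's diffSplice test of relative use the F test gave an adjusted p of 1 for each of them, and over all genes 6 of 4612 (0.13%) and 10 of 35263 junctions (0.0284%) were called. Junctions with a dropped value or few reads were left out, so that 38 of 59 were tested in Acaca and 2 of 4 in Elovl6. Changes at untested junctions could not be seen. One alternative exon could be read directly, in a comparison chosen after its values were seen. Acly skips block 14 in part of its messages, and the skipped share was 35.7 ± 3.95% in Cop1KO and 35.6 ± 1.46% in Cop1WT (SD, n = 4). Dropped values occurred in libraries of both groups. In Acly the junction from block 28.1 to 29.1 kept 1011 reads in Cop1WT library 1 and held 1 to 3 reads in the other 7 libraries, and that from 16.2 to 17.1 kept 575 and 724 reads in Cop1KO libraries 3 and 4 alone. In Fasn the junction from block 41.4 to 42.1 kept 549 reads in Cop1KO library 2 and 668 in Cop1WT library 4.

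Levels between genes were compared per junction, over junctions with no dropped value and a mean of at least 10 reads. In Cop1WT the order was Scd2 (161 RPM per junction), Fads2 (61.0), Fasn (42.6), Acly (39.5), Scd1 (28.7), Fads1 (21.0), Elovl5 (19.3), Elovl6 (6.51), Acaca (6.50) and Elovl1 (1.42). Neighbours whose libraries overlapped there were Fasn and Acly, Scd1 and Fads1, Fads1 and Elovl5, and Elovl6 and Acaca. In Cop1KO Scd2 was still highest (80.8 RPM per junction), Fads2 (31.8), Fasn (30.6) and Acly (30.4) overlapped in turn, and the means of Elovl5 (20.4), Fads1 (12.1) and Scd1 (11.1) followed. Elovl5 did not overlap Fads1 there, but Scd1 overlapped both, since library 4 of Cop1KO had 20.2 RPM per junction for Scd1 and 14.9 for Elovl5. Scd2 stood far above its neighbour Scd1 in both groups.

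Pairs of libraries with the same replicate number showed where the groups drew together. Of the 8 enzymes with a negative fold change other than Elovl1, all 8 had their smallest difference in the pair numbered 4. There the log2 difference was -0.44 for Fads2, -0.47 for Fads1, -0.18 for Scd2, -0.01 for Fasn, 0.15 for Elovl6 and 0.34 for Scd1. In pairs 1, 2 and 3 the differences were -1.25, -1.08 and -1.10 for Fads2 and -2.40, -1.83 and -1.83 for Scd1. Cop1KO library 4 was the highest Cop1KO library for 7 of the 8 enzymes, and Cop1WT library 4 the lowest Cop1WT library for 5. Without these libraries all 8 had no overlap between the groups. The share of all genes was not counted for the smallest differences, for these extremes or for this separation. Fewer libraries also make such separation easier. Across all genes tested, Cop1KO library 4 correlated at 0.934 to 0.941 with the other Cop1KO libraries, which correlated at 0.970 to 0.975 with each other. For Cop1WT library 4 the range was 0.948 to 0.956, against 0.969 to 0.981 among the other Cop1WT libraries. Cop1 itself was as low in Cop1KO library 4 (66.7 RPM) as in libraries 1 to 3 (70.3 to 81.3 RPM), and S-phase genes were too (2723 RPM in library 4, against 2486 to 3015 RPM in the others). That library stood apart in its late neutrophil markers (366 RPM, against 4440 to 10413 RPM in the other 3) and in its erythroid markers (431 RPM, against 63.0, 47.7 and 122.9 RPM in the others and 279.8 to 571 RPM in Cop1WT). Their part in the enzymes' values was not tested.

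**Figure D3:**
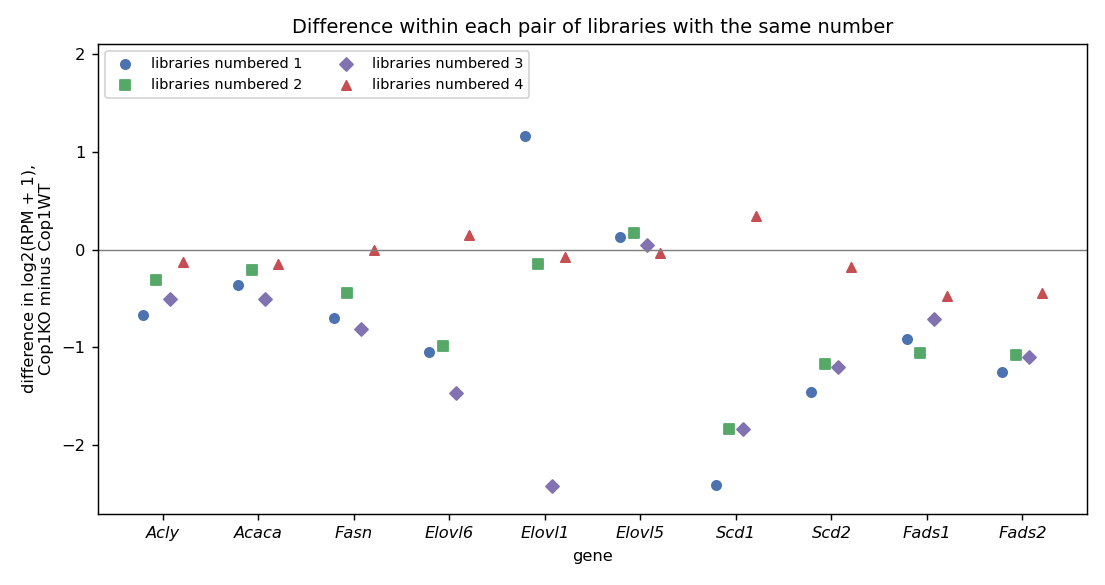
Difference in log2(RPM + 1), Cop1KO minus Cop1WT (vertical axis), within each pair of libraries that share a replicate number, for the 10 enzymes. The pair numbered 4 (triangles) lies nearest to 0 for the 8 enzymes with a negative fold change other than Elovl1, and above 0 for Elovl6 and Scd1.

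Srebf1, whose protein SREBP-1 switches on most of these enzymes, changed in which first exon it used. As a whole the gene gave 128, 169, 123 and 195 RPM in Cop1KO, against 211, 151, 253 and 178 RPM in Cop1WT (log2 fold change -0.37 ± 0.20, SE; adjusted p = 0.23, limma), but 9 of its 21 junctions held dropped values. Over the other 12 the log2 fold change was -0.46 ± 0.10 (SE; adjusted p = 0.0095, limma). It was 1 of the 6 genes called by diffSplice (F test, adjusted p = 1.2e-04). The table holds 3 junctions from first blocks into block 4, which match in number and order the 3 first exons of Srebf1 in Gencode on the minus strand of chromosome 11 (mm10): 60222523 to 60222581, 60220453 to 60220604, and 60210336 to 60210465. The blocks carry no coordinates, so this match rests on order. The last of the 3 encodes 19 coding bases and the middle one 91, the arrangement known for SREBP-1c, the form that predominates in liver and answers to insulin and LXR, and for SREBP-1a, the stronger activator common in dividing cells.

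The junction from the downstream first exon held 50, 42, 67 and 87 reads in Cop1KO, against 197, 169, 133 and 137 reads in Cop1WT. Every Cop1KO library lay below every Cop1WT library, library 4 included. Relative use could be tested for only 6 of the 21 junctions of Srebf1, and the junction from the upstream first exon was not among them. Against the other tested junctions, use of the downstream first exon's junction fell by 1.05 on the log2 scale (adjusted p = 4.3e-05, diffSplice). With means of 3.05 RPM in Cop1KO and 8.27 RPM in Cop1WT, this junction passed the read filter of the junction tests only through Cop1WT. The junction from the middle first exon held 314, 264, 284 and 381 reads in Cop1KO, against 371, 278, 291 and 288 reads in Cop1WT, and these groups overlapped (log2 fold change -0.04 ± 0.10, SE; adjusted p = 0.78, limma). Of the reads of the 3 first junctions, the downstream exon took 12.4, 12.2, 17.7 and 16.2% in Cop1KO, against 31.8, 34.0, 28.5 and 30.3% in Cop1WT, a share chosen after its values were seen. Srebf2, the sister gene that mainly drives cholesterol synthesis, gave 577 ± 20.9 RPM in Cop1KO and 586 ± 55.9 RPM in Cop1WT (SD, n = 4; log2 fold change -0.02, adjusted p = 0.91, limma). Its direction flipped under TMM scaling, to 0.06. Nr1h3, the gene of LXRα, had at most 6 reads in any library and was not tested.

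**Figure D4:**
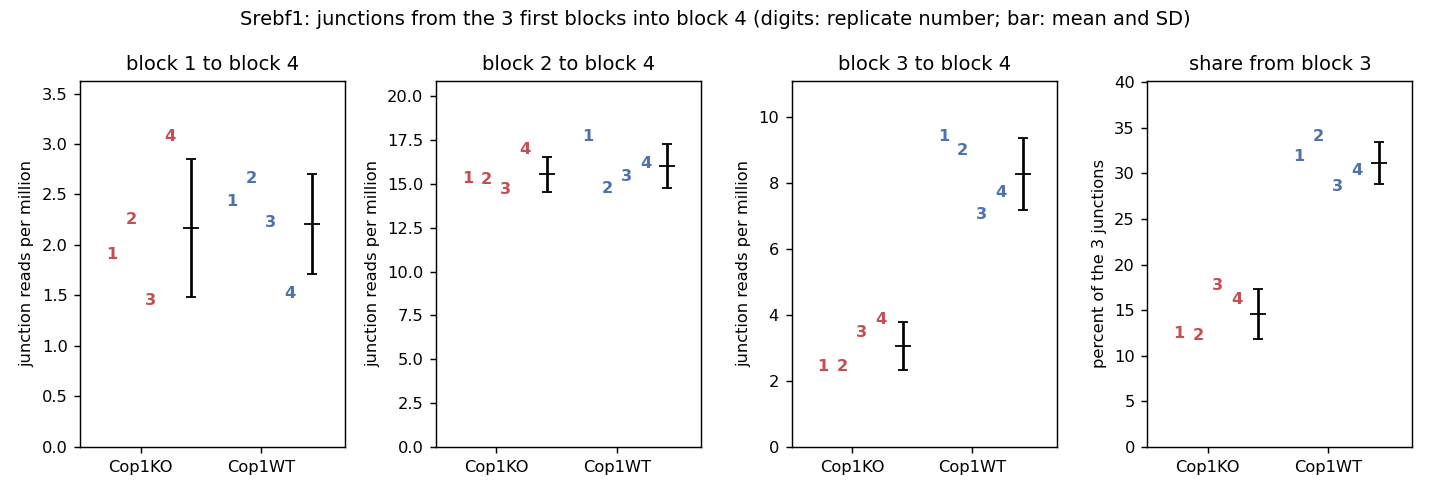
Junction reads in RPM from each of the 3 first blocks of Srebf1 into block 4, and the share taken by block 3 in percent (vertical axes, linear, from 0), in Cop1KO libraries (red, left) and Cop1WT libraries (blue, right); digits are replicate numbers and bars give the mean and SD. Block 3 took 14.6 ± 2.75% in Cop1KO and 31.2 ± 2.32% in Cop1WT (SD, n = 4).

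Of 19 tested regulators of lipogenesis, Srebf1 and Srebf2 among them, 2 were called lower and 1 higher, where 12.1% of all genes were called lower and 8.49% higher. Scap, which escorts SREBPs to the Golgi for cleavage, fell to 113.7 ± 1.58 RPM in Cop1KO, against 141.6 ± 3.45 RPM in Cop1WT (SD, n = 4; log2 fold change -0.31, adjusted p = 0.012, limma). Ppargc1b, a coactivator of SREBP-1, fell to 3.16 ± 0.522 RPM, against 6.07 ± 0.935 RPM in Cop1WT (log2 fold change -0.77, adjusted p = 0.016; called in 7 of the 8 fits that leave out 1 library). Rxra, the partner of LXR, rose to 17.1 ± 7.79 RPM, against 3.40 ± 1.93 RPM in Cop1WT (log2 fold change 2.05, adjusted p = 0.013). Of AMPK subunits, the kinase upstream of AMPK and Trib3, none of 8 passed the test; the well-expressed Stk11 had 221 ± 8.76 RPM in Cop1KO and 235 ± 33.3 RPM in Cop1WT, and Prkag1 209.98 ± 15.8 and 182 ± 9.12 RPM (adjusted p = 0.67 and 0.11). Prkag1 passed only under TMM scaling among the settings tried (log2 fold change 0.28, adjusted p = 0.046). Of the 8, 1 was called lower with junctions that hold a dropped value left out, where 16.9% of all genes were. Without both libraries numbered 4, 1 was called lower as well, against 14.1% of all genes. Trib3 gave 12.1, 12.1, 11.4 and 10.5 RPM in Cop1KO, against 11.6, 12.1, 7.46 and 7.30 RPM in Cop1WT, and was not called (adjusted p = 0.34).

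Other enzymes around the pathway went both ways. Of 24 further synthesis, elongation and desaturation genes tested, 4 were called lower (Acss1, Hsd17b12, Mcat and Scd3) and 2 higher (Hacd2 and Idh1), with a median log2 fold change of -0.15. Over all genes 12.1% were called lower and 8.49% higher, with a median of -0.07. Hacd2, a dehydratase of the elongation cycle, rose to 78.0 ± 15.3 RPM in Cop1KO, against 40.5 ± 7.19 RPM in Cop1WT (log2 fold change 0.92, adjusted p = 0.010). Acss1, a mitochondrial acetyl-CoA synthetase, fell to 27.5 ± 7.10 RPM, against 51.8 ± 9.91 RPM in Cop1WT (log2 fold change -0.91, adjusted p = 0.019). Hsd17b12, the ketoreductase of the same cycle, differed by -0.61 on the log2 scale (adjusted p = 0.019), but 5 of its 11 junctions held dropped values and without them it was -0.10 (adjusted p = 0.49). Among NADPH suppliers 3 of 12 were called lower and 2 higher, where 12.1% of all genes were called lower and 8.49% higher. Mthfd1 fell to 160.5 ± 29.0 RPM in Cop1KO, against 319.8 ± 41.2 RPM in Cop1WT (adjusted p = 0.0044), with Mthfd2 at -0.66 (0.019) and Me2 at -0.40 (0.034) on the log2 scale. Idh1, the cytosolic NADPH-making isocitrate dehydrogenase, rose to 188.5 ± 31.8 RPM, against 105.3 ± 31.2 RPM in Cop1WT (adjusted p = 0.024), with library 4 of Cop1KO below library 3 of Cop1WT and a call in 2 of the 8 fits that leave out 1 library; Pgd, of the pentose phosphate pathway, was the other. Me2 lost its call under TMM scaling (adjusted p = 0.086). It also lost it when both libraries numbered 4 were left out (0.057), and was called in 1 of the 8 fits that leave out 1 library, against 4 for Hsd17b12, 6 for Mthfd2 and 7 for Acss1.

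Of 12 acyl-CoA synthetase, transport and binding genes tested, 2 were called higher and 0 lower, where 8.49% of all genes were called higher; without both libraries numbered 4 it was 3 higher and 2 lower. Dbi, the acyl-CoA binding protein, rose to 30.6, 37.9, 31.4 and 68.5 RPM in Cop1KO, against 0.906, 1.22, 1.59 and 1.12 RPM in Cop1WT (log2 fold change 4.22, adjusted p = 3.2e-04), with dropped values in 2 of its 5 junctions. With those 2 junctions left out Dbi averaged below 1 RPM and was not tested, so its rise rests on junctions that hold dropped values. Slc27a4, a fatty acid transport protein, rose to 129.5, 159.6, 124.9 and 49.4 RPM in Cop1KO, against 19.4, 22.7, 28.2 and 18.0 RPM in Cop1WT (log2 fold change 2.24, adjusted p = 0.0050). In both genes, as summed over all junctions, every Cop1KO library lay above every Cop1WT library. Of 19 phospholipid acyltransferases tested, 5 were called higher (Mboat1, Gpat3, Cept1, Agpat3 and Mboat7) and 1 lower. Over all genes 8.49% were called higher and 12.1% lower. Mboat1, a lysophospholipid acyltransferase, rose to 136 ± 20.2 RPM in Cop1KO, against 39.2 ± 10.4 RPM in Cop1WT (adjusted p = 0.0022), and Cept1, which makes phosphatidylcholine and phosphatidylethanolamine, to 52.3 ± 9.06 RPM, against 31.97 ± 2.31 RPM (0.014). Gpat3 held 119, 131, 97 and 27 reads in Cop1KO, against 0, 0, 14 and 0 reads in Cop1WT (adjusted p = 0.011). With means of 4.89 RPM in Cop1KO and 0.185 RPM in Cop1WT, it passed the filter of 1 RPM only through Cop1KO. Gpam, the mitochondrial glycerol-phosphate acyltransferase and an SREBP-1 target itself, fell to 14.8 ± 1.55 RPM in Cop1KO, against 26.3 ± 3.77 RPM in Cop1WT (log2 fold change -0.79, adjusted p = 0.0078). On their most-read junction alone Gpam (-0.42, adjusted p = 0.16), Dbi (adjusted p = 0.069) and Acss1 (adjusted p = 0.086) were not called.

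Of 26 fatty acid oxidation genes tested 4 were called lower and 0 higher, a share near the 12.1% of all genes called lower, with a median log2 fold change of -0.15. With junctions that hold a dropped value left out, 7 of the 26 were called lower, against 16.9% of all genes. Without both libraries numbered 4 it was 6 lower and 1 higher, where 14.1% of all genes were called lower. Eci1, an enoyl-CoA isomerase of mitochondrial oxidation, fell to 22.0 ± 2.08 RPM in Cop1KO, against 37.8 ± 4.40 RPM in Cop1WT (log2 fold change -0.75, adjusted p = 0.0062). Acat1, the mitochondrial thiolase of ketone and isoleucine breakdown, fell to 126 ± 17.0 RPM, against 186.6 ± 13.1 RPM in Cop1WT (log2 fold change -0.57, adjusted p = 0.0099). Hsd17b4, of peroxisomal oxidation, differed by -0.34 on the log2 scale (adjusted p = 0.041; 0.087 under TMM scaling and 0.053 without both libraries numbered 4). Cpt1c, a carnitine palmitoyltransferase of low level here, held 3, 10, 4 and 19 reads in Cop1KO, against 38, 48, 63 and 13 reads in Cop1WT (adjusted p = 0.047; 0.062 with the replicate block). With means of 0.444 RPM in Cop1KO and 2.11 RPM in Cop1WT, it passed the filter of 1 RPM only through Cop1WT. Hsd17b4 and Cpt1c were each called in 2 of the 8 fits that leave out 1 library. All adjusted p-values of these genes are from the limma fit, and under TMM scaling the share of called genes that were higher moved to 52.9%, against 41.3% at total-read scaling.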

How the data were processed

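RNA of 4 Cop1KO and 4 Cop1WT libraries of FT1CL cells was measured by strand-specific sequencing. The submitters' processing notes name build mm10, kallisto and Trimmomatic 0.39; aligner and annotation were not given in the sources used here. The deposited values are a normalised signal for 134051 AltAnalyze junctions of 13378 genes. Tested on the values, each was the junction's reads plus 1, scaled to the library's total and a length of 60 nt, with 0 reads at a common floor. Reads recovered from this were whole within 0.001 of a read.

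Reads were summed per gene and divided by the library's total to give RPM. Fragments over several junctions were counted more than once, and genes without introns were not analysed here. limma 3.58.1 (R 4.3.3), with trend and robust moderation, was run on log2(RPM + 1) for the 11003 genes averaging 1 RPM or more; p-values were adjusted by Benjamini-Hochberg, with a threshold of 0.05, and fold changes understate those of low genes. Adjusted p-values of genes and junctions come from limma. Junctions averaging 100 or more scaled reads without any dropped value were tested on log2(RPM + 0.05), and their relative use with diffSplice. A value was called dropped at 6 reads or fewer where 100 or more were predicted from the rest of the gene. Ratios and library measures were compared by exact permutation. The scripts were tested on simulated data.

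The 10 members, Cop1, Srebf1, Srebf2, Nr1h3 and Trib3 were always named, and from each other list up to 4 called genes with the smallest adjusted p, or the 2 with the highest mean where none was called. The members, lists and tests were chosen with earlier results of these data known. Agpat3, Mboat7, Mcat, Pgd and Scd3 fall outside the rule and are named only to complete a count. Same-numbered libraries deviated together from their group means (correlations 0.316, 0.293, 0.356 and 0.550, with 0.146 the highest between different numbers), so the labels' numbers pair the libraries; the reported fit has no term for them. Libraries within a group differed by far more than counting noise (chi-square per degree of freedom 30.8 or more), so none was a copy of another. Dropped values enter this measure, so it cannot show whether libraries came from the same RNA. Alternatives covered pseudocounts, filters, TMM scaling, the replicate block, dropped values, the most-read junction and left-out libraries.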

Additional observations from a re-analysis of the deposited data

Results flagged for a closer look

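Among 26 groups of 4 libraries examined for a single value far from the other 3, 2 were flagged, and chance flags about 1 group in 20. Fads2 in Cop1KO library 4 had 482.2 RPM, above the 302 to 311 RPM of the other Cop1KO libraries and below every Cop1WT library. Elovl5 in Cop1KO library 4 had 104.5 RPM, below the 153.6 to 160.0 RPM of the other Cop1KO libraries. Cop1WT library 4 was the lowest of its group for Elovl5 too, at 107 RPM, but was not flagged.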

How the results depend on the processing

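Scd2, Fads1 and Fads2 kept their direction and their call under all 19 other settings listed at the outset and the 1 added after seeing the data, which left out both libraries numbered 4 together with junctions that hold a dropped value. Calls of Acly, Fasn and Scd1 were lost under 9, 6 and 8 of the 19, and Acaca and Elovl6 gained one under 6 and 5. The number of members called was 6, and 3 to 7 when 1 library was left out. Genes called numbered 2264, and 1215 to 2991 when 1 library was left out, 4223 with the replicate block and junctions with a dropped value left out, and 3723 under the added alternative. The replicate block alone gave 3084 genes and 6 members, and changed the calls of Scd1, Acaca and Cpt1c among the named genes. Junctions called numbered 12344, and 8197 to 15452 when 1 library was left out. Genes with changed junction use numbered 6, with 15 under the replicate block, 14 without both libraries numbered 4, and 4 to 11 when 1 library was left out. Uncalled values that changed sign were Elovl1 (0.087 with the most-read junction, -0.75 to 0.38 when 1 library was left out), Elovl5 (-0.029 to 0.22 when 1 library was left out) and Srebf2 (0.058 under TMM scaling, 0.024 with the most-read junction, -0.079 to 0.024 when 1 library was left out); the cause was not tested. With 4 libraries a group, exact permutation tests of ratios cannot go below p = 0.029, and low genes such as Elovl6 rest on few reads. The planned count-model tests were not run: the deposited table, in which 0 reads stand at a common floor, was analysed as a normalised signal.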
